A study of Mus musculus with 6 samples.

Results

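The integrated stress response is run by transcription factors and regulators around ATF4 and CHOP, and 10 of their genes were followed here in sarcoma cells with reduced periostin. The genes are those of the transcription factors Atf4, Atf5 and Atf3, of CHOP (Ddit3) and of the stress cofactor Nupr1. The others are those of the regulators Trib3, Chac1, Sesn2, Ddit4 and Ppp1r15a. All 10 were chosen by name. They matched 11 of the 35727 rows of the count table because Ddit3 has 2 Ensembl identifiers. Of these identifiers 1 had 0 counts in every library. All 10 genes passed the filter on low counts and are among the 12819 genes tested.

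The data are 6 RNA-seq libraries from mouse cells of undifferentiated pleomorphic sarcoma, a soft tissue tumour of mesenchymal cells. The line, named p53 KO Ccne1 OE, was made from mesenchymal stem cells of female p53-deficient C57/Bl6 mice by retroviral overexpression of Ccne1 with a red fluorescent protein, and had been grown in 2 rounds under the skin of female wild-type mice. A viral vector then delivered either a hairpin directed at Postn (shPostn, 3 libraries, titled Postn-KO), which encodes the matrix protein periostin, or a scrambled hairpin (shSCR, 3 libraries, titled Postn-WT). By their labels both groups are p53 knockouts that overexpress Ccne1. Cells positive for the red protein were sorted from tumours, and neither the age of the tumours nor the genotype of the final hosts is given. Each group is 1 transduced line, and the labels do not say whether its libraries came from separate tumours, so p-values measure only the spread between these libraries, which may be technical.

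When amino acids run short, haem is lacking, viral RNA is present or misfolded protein fills the endoplasmic reticulum, kinases phosphorylate the initiation factor eIF2 on its alpha subunit. Most protein synthesis then falls while the mRNAs of ATF4, ATF5 and CHOP are translated more, through upstream reading frames, so the amount of these proteins cannot be read from mRNA alone. ATF4 and CHOP bind composite C/EBP-ATF elements as dimers with other leucine zipper proteins and switch on genes of amino acid supply, together with feedback genes that end the response or lead to cell death.

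The start sites of the members were searched for such elements, in RefSeq promoter windows of GRCm38.p6 that reach from 250 bases before to 50 bases after each start. All 10 members had a window. The C/EBP-ATF element TGATGNAA, read on both strands, was found in the windows of Chac1, Nupr1, Atf3 and Trib3, and in 3.97% of all 32851 promoter windows of this length. Its C variant TGACGNAA was found in Chac1 and Atf3 and in 1.59% of all windows. Among the 9698 tested genes with a window, 2.8% held the first form and 3.16% the C variant. The 250 bases before the start are shown for Chac1 (chr2:119350992-119351241, plus strand), Nupr1 (chr7:126625471-126625720, minus strand) and Atf3 (chr1:191183334-191183583, minus strand), since they hold the matches, which are in capitals. For Trib3 only a stretch of 30 bases is shown (chr2:152344028-152344057, minus strand). Its match lies after the RefSeq start, at bases 15 to 22 counted from the start as 1. In the GENCODE M21 annotation, used here for gene positions, Trib3 starts at base 152344032, and the match lies before that start. Chac1 starts there at base 119351229, also after its matches. The GENCODE extents of Nupr1 and Atf3 begin further upstream, at bases 126630861 and 191218039. Their matches, which lie before the RefSeq starts, fall within these extents.
Chac1: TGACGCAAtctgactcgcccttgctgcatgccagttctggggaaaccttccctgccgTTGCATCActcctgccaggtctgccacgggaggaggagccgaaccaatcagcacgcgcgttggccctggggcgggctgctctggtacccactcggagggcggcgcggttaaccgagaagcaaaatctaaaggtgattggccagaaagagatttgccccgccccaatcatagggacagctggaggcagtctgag
Nupr1: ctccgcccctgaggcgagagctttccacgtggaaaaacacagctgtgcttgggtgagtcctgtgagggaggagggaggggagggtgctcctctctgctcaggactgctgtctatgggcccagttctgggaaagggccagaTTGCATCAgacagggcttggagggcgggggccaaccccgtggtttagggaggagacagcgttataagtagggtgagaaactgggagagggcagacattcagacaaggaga
Atf3: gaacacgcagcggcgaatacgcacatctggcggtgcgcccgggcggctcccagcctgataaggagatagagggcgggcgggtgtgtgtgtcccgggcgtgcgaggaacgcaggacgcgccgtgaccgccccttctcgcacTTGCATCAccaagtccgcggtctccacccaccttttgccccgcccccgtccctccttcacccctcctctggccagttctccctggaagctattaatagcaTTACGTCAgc
Trib3: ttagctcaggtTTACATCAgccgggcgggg

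In Chac1 the matches lie at bases −250 to −243 and −193 to −186 before the RefSeq start, and in Atf3 at −110 to −103 and −10 to −3. The Nupr1 match also lies at −110 to −103. The palindromic cAMP response element TGACGTCA, to which dimers of the ATF and CREB families bind, was found in Ppp1r15a at −12 to −5. It was found in 1.79% of all windows and in 3.51% of tested genes with a window. The endoplasmic reticulum stress element, searched on either strand, was found in 0 members and in 0.119% of all windows. No matches overlapped, and windows of Atf4, Atf5, Ddit3, Sesn2 and Ddit4 held none of the 4 motifs. A match describes these letters only. Of the 3 members with the largest falls, Trib3 and Chac1 have the element in this window and Sesn2 does not, while Atf3 has it and did not pass the test.

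**Figure D1:**
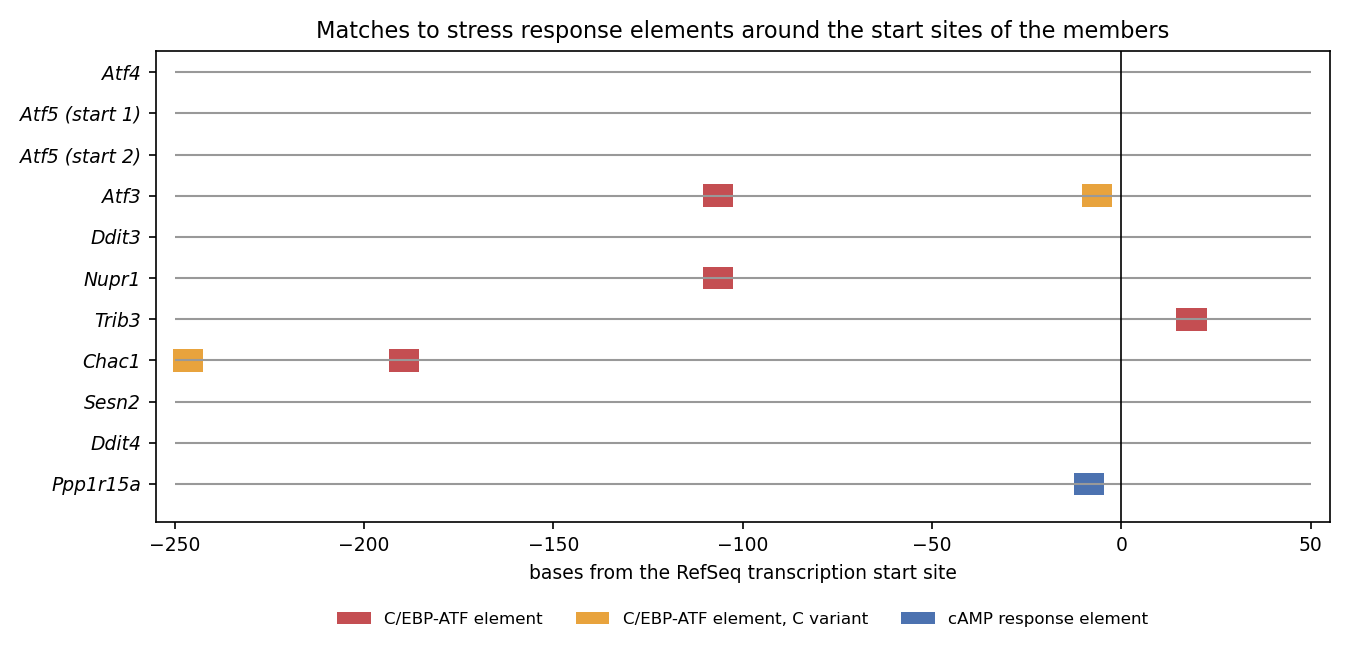
Positions of motif matches, in bases from the RefSeq start site, in the windows of the 10 members (Atf5 has 2 starts). Chac1 and Atf3 have matches to both forms of the C/EBP-ATF element, Nupr1 and Trib3 to the first form, and Ppp1r15a to the cAMP response element.

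The libraries held between 19603269 and 20376554 counts, and Postn fell from 3641.5 ± 437 to 442 ± 212 CPM (counts scaled to 1e6 per normalised library; SD, n = 3 each; log2 fold change −3.04, edgeR quasi-likelihood adjusted p = 0.0125), or 12.1% of control. Ccne1 averaged 17.0 and 17.4 CPM and Trp53 mRNA 121 and 118 CPM; which p53 allele the cells carry is not given. The sarcoma genes Vim, Col1a1, Col1a2 and Sparc were each above 1800 CPM in both group means, while Thy1 was at 1.96 and 0.821 CPM. The 18 leukocyte markers summed to 1270 CPM in shPostn replicate 3 and to between 78.8 and 276 CPM in the other 5 libraries. Sums were at most 7.69 CPM for 7 endothelial, 2.60 CPM for 6 epithelial and 12.02 CPM for 7 skeletal muscle markers, with the keratinocyte gene Krt5 at 0 counts in every library. Des, 1 of the muscle markers, averaged 9.10 CPM in shSCR and 0.805 CPM in shPostn. On the 2nd principal component shPostn replicate 3 stood at 46.5 and the others between −20.7 and 3.65. In sorted bulk cells, fewer cells of a type and less RNA per cell cannot be told apart.

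Of the 10 members 6 fell in shPostn, namely Trib3, Chac1, Sesn2, Nupr1, Atf5 and Ddit3, and 0 rose; Atf4, Ddit4, Ppp1r15a and Atf3 did not pass the test. That is 60.0% of the members lower, against 5.53% of all 12819 genes tested. The median log2 fold change was −0.54 over the members and 0.01 over all genes. The groups did not overlap for 7 members, the 6 that fell and Atf4, all lower in shPostn, as for 17.0% of all genes tested (33.6% in either direction). At an unadjusted p under 0.05, 7 members were lower and 0 higher, against 27.0% of all genes in either direction, and DESeq2 and limma-voom called 7 and 6 lower and 0 higher. The number that fell was 3 (Trib3, Chac1 and Sesn2) without any 1 of the shSCR libraries or without shPostn replicate 2, and 7 without shPostn replicate 3.

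**Figure D2:**
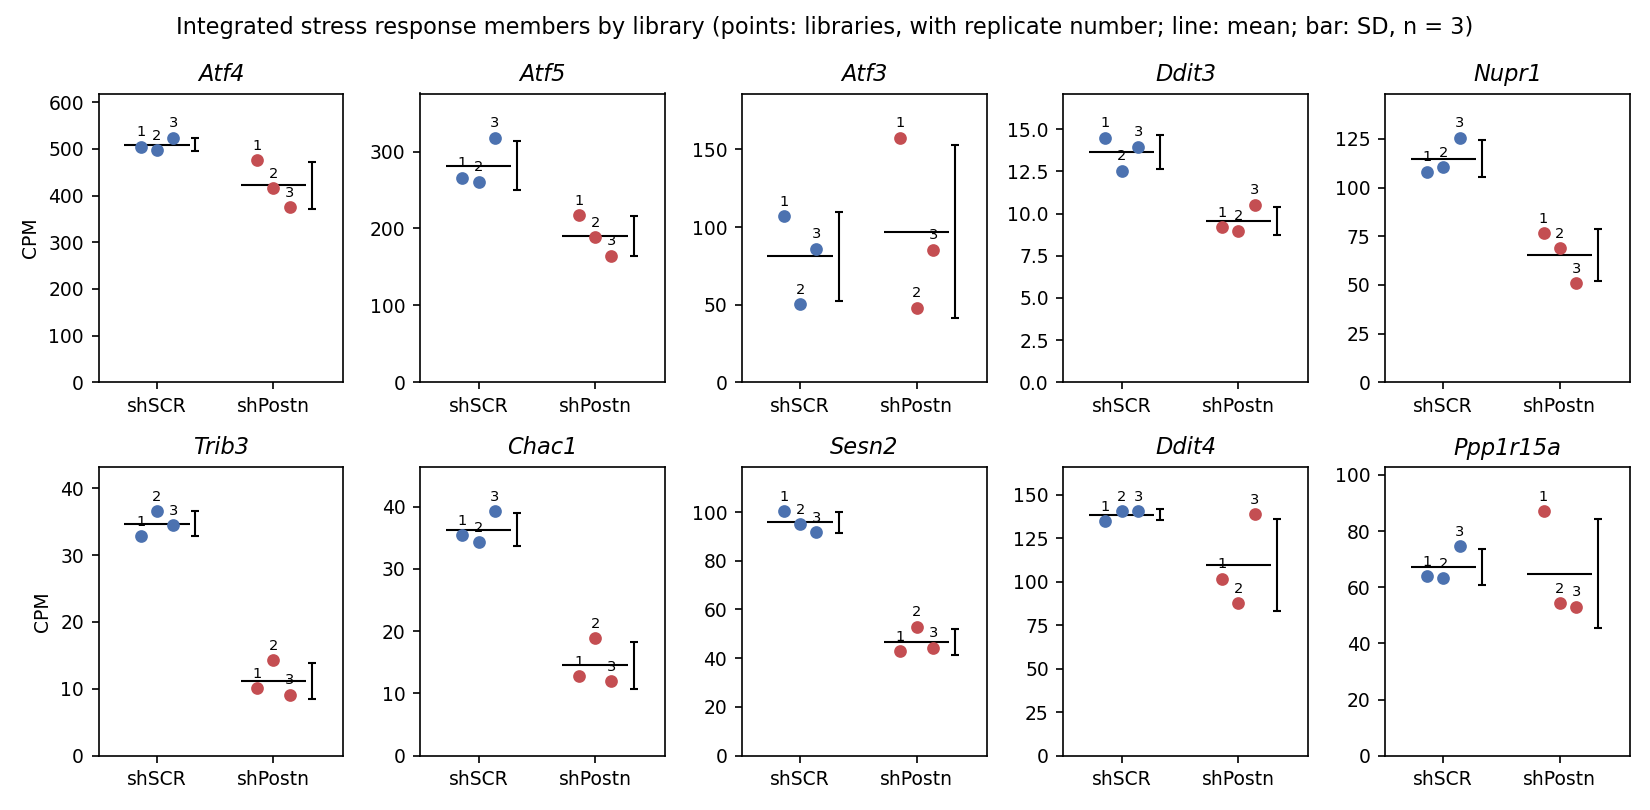
CPM of each member in the 3 shSCR and 3 shPostn libraries; points are libraries with their replicate number, lines are means and bars the SD. The 3 shPostn points of Trib3, Chac1 and Sesn2 lie far below all shSCR points, those of Atf4 lie just below them, and those of Atf3, Ppp1r15a and Ddit4 overlap them.

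The deepest fall was in Trib3, which encodes a pseudokinase that is induced by ATF4 and CHOP and restrains ATF4 activity and AKT signalling. Trib3 (ENSMUSG00000032715; GRCm38 chromosome 2, 152337422 to 152344032, minus strand) measured 32.9, 36.6 and 34.5 CPM in shSCR replicates 1 to 3 and 10.1, 14.3 and 9.14 CPM in shPostn replicates 1 to 3. Every shPostn library was under 15 CPM and every shSCR library above 32 CPM. The mean was 32.3% of control, 11.2 ± 2.74 against 34.7 ± 1.87 CPM (SD, n = 3 each). The edgeR quasi-likelihood log2 fold change was −1.63 (standard error, SE, 0.17), with an adjusted p of 0.00429.

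Chac1 encodes a gamma-glutamylcyclotransferase that breaks down glutathione and is a target of ATF4, ATF3 and CHOP. It lies on chromosome 2 (ENSMUSG00000027313; 119351229 to 119354381, plus strand). Chac1 measured 35.4, 34.3 and 39.3 CPM in shSCR and 12.7, 18.9 and 12.0 CPM in shPostn, a fall to 40.0% of control. As for Trib3, shPostn replicate 2 was the highest of its group and still below all controls. The log2 fold change was −1.32 (SE 0.18, edgeR adjusted p = 0.00812).

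Sesn2 encodes sestrin 2, a leucine sensor that holds back the growth kinase complex mTORC1. It lies on distal chromosome 4 (ENSMUSG00000028893; 132492032 to 132510501, minus strand). Sesn2 measured 100.4, 94.9 and 91.8 CPM in shSCR and 42.9, 52.9 and 44.3 CPM in shPostn, a fall to 48.8% of control. Within each group the libraries differed little, with a coefficient of variation (CV) of 4.56% in shSCR and 11.6% in shPostn, and the groups lay far apart. The log2 fold change was −1.04 (SE 0.09, edgeR adjusted p = 0.00276). Around Sesn2, 32 other tested genes lay within 1 Mb; their median was −0.19 and 7 of them fell. With the median of chromosome 4 (−0.14) taken out, Sesn2 had −0.89 (edgeR adjusted p = 0.00563). The 24 and 39 tested genes as close to Trib3 and Chac1 on chromosome 2 had medians of −0.0039 and 0.02.

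Trib3, Chac1 and Sesn2 passed the test under all 16 alternative analyses, with edgeR adjusted p of at most 0.0310, 0.0441 and 0.0253 when 1 library was left out. These 3 were also among the 201 genes, 1.57% of those tested, that fell at least to a log2 fold change of −1.

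**Figure D3:**
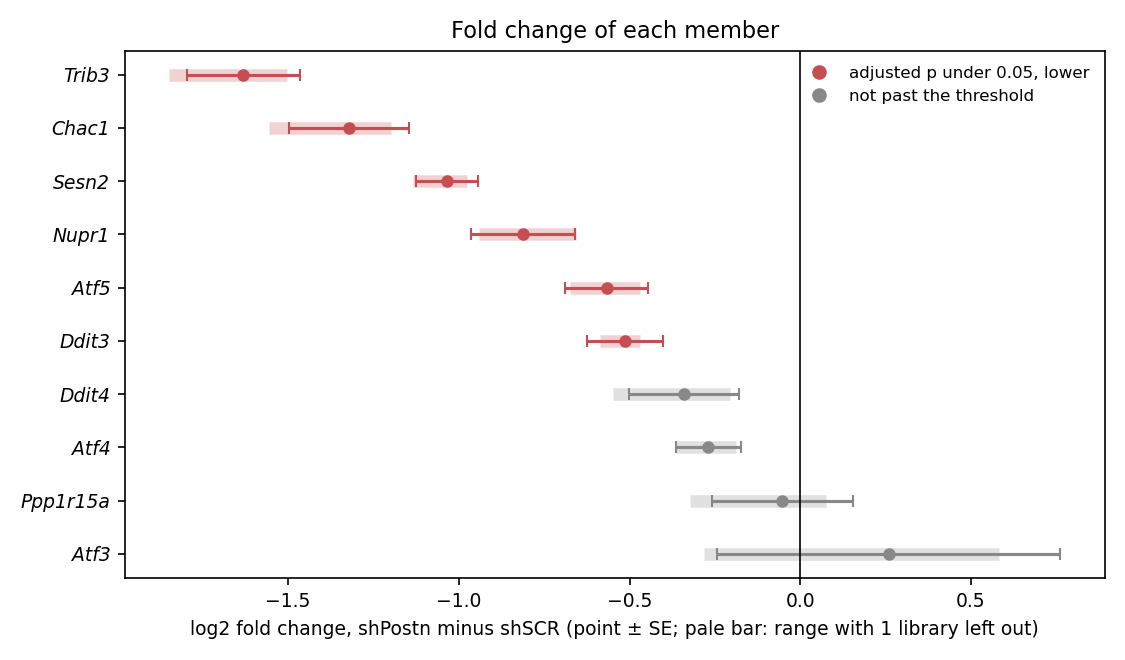
log2 fold change of each member, shPostn minus shSCR, as a point with its SE; pale bars span the values with 1 library left out, and red marks an adjusted p under 0.05. The pale bars of Trib3, Chac1 and Sesn2 lie below −0.9, while those of Atf3 and Ppp1r15a span 0.

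Nupr1 encodes a small nuclear stress protein that acts with ATF4 and is induced by starvation and endoplasmic reticulum stress. Nupr1 (ENSMUSG00000030717; chromosome 7, 126623249 to 126630861, minus strand) measured 108, 111 and 126 CPM in shSCR and 76.5, 68.8 and 50.8 CPM in shPostn. All shPostn libraries were lower, and replicate 3 was the lowest. Its log2 fold change was −0.81 (SE 0.15, edgeR adjusted p = 0.0243), a fall to 56.9% of control.

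Atf5, an ATF4 relative that also governs the mitochondrial stress response, fell less. Atf5 (ENSMUSG00000038539; chromosome 7, 44812256 to 44816658, minus strand) measured 266, 261 and 318 CPM in shSCR and 217, 188 and 165 CPM in shPostn. The groups were separate, and shSCR replicate 3 was the highest and shPostn replicate 3 the lowest. The log2 fold change was −0.57 (SE 0.12, edgeR adjusted p = 0.0317). With chromosome medians taken out it was −0.51 (adjusted p = 0.0600). Atf5 shares 82 exon bases with Nup62 and with Il4i1 on the other strand; Nup62 also fell (log2 fold change −0.32, adjusted p = 0.0493). The library kit marks strand, but no source states whether the counting used it, so reads of the shared bases cannot be told apart.

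Ddit3 encodes CHOP, the factor that carries prolonged stress towards cell death, and was the member with the fewest counts. Ddit3 (ENSMUSG00000025408; chromosome 10, 127290774 to 127296288, plus strand) measured 14.5, 12.6 and 14.0 CPM in shSCR and 9.18, 8.997 and 10.5 CPM in shPostn. It held 827 counts over the shSCR libraries and 568 over the shPostn libraries, a ratio of 1.43 (95% exact Clopper-Pearson interval 1.28 to 1.59, counting error only). The groups did not overlap and each was tight. The test gave a log2 fold change of −0.51 (SE 0.11, edgeR adjusted p = 0.0320). Ddit3 shares 68 exon bases with the tRNA synthetase gene Mars on the other strand, which had a log2 fold change of −0.18 (adjusted p = 0.0970).

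Nupr1, Atf5 and Ddit3 each lost their call without shSCR replicate 1, 2 or 3 and without shPostn replicate 2, and Ddit3 also without shPostn replicate 1. Their edgeR adjusted p reached 0.0946, 0.106 and 0.118 in these fits. Their log2 fold changes with 1 library left out lay between −0.94 and −0.66 for Nupr1, −0.67 and −0.47 for Atf5, and −0.59 and −0.47 for Ddit3.

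Atf4, the central factor and by far the most abundant member, had a small difference that did not pass. Atf4 (ENSMUSG00000042406; chromosome 15, 80255184 to 80257541, plus strand) measured 504, 497 and 524 CPM in shSCR and 476, 416 and 375 CPM in shPostn. The shPostn libraries were all lower, by little in replicate 1 and more in replicate 3. This gave a log2 fold change of −0.27 (SE 0.09, edgeR adjusted p = 0.1205; unadjusted p = 0.0244). It was −0.36 without shPostn replicate 1 (adjusted p = 0.0389), and DESeq2 gave −0.26 (adjusted p = 0.0471). Whether the targets fell further than Atf4 itself was not tested.

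The other 3 members had overlapping groups. Ddit4, the gene of REDD1, which restrains mTORC1 through the TSC complex and also responds to hypoxia and glucocorticoids, measured 135, 140.3 and 140.5 CPM in shSCR and 102, 87.7 and 139 CPM in shPostn (chromosome 10). shPostn replicate 3 lay within the control range and the other 2 below it. The log2 fold change was −0.34 (SE 0.16, edgeR adjusted p = 0.238). Without shPostn replicate 3 it was −0.55 (adjusted p = 0.00389), and with the leukocyte mean as a covariate −0.45 (adjusted p = 0.0104).

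Ppp1r15a encodes GADD34, the stress-induced subunit that directs a phosphatase to eIF2 alpha and so ends the response. Ppp1r15a (chromosome 7) measured 63.9, 63.2 and 74.5 CPM in shSCR and 87.1, 54.3 and 53.0003 CPM in shPostn, with a log2 fold change of −0.05 (SE 0.21, edgeR adjusted p = 0.899). Atf3, an early-response repressor and activator induced by many stresses, measured 107, 50.1 and 86.1 CPM in shSCR and 158, 48.1 and 85.3 CPM in shPostn (chromosome 1; log2 fold change 0.26, SE 0.50, edgeR adjusted p = 0.787). In both genes shPostn replicate 1 was the highest of all 6 libraries. The spread between libraries of 1 group was larger than the difference between groups; Atf3 had a CV of 35.6% in shSCR and 57.4% in shPostn.

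Levels between members were compared per length, as mean CPM per kilobase of merged exons. In shSCR the order was Atf4 (216), Atf5 (141), Ddit4 (78.9), Nupr1 (45.7), Atf3 (37.7), Sesn2 (27.5), Ppp1r15a (22.9), Chac1 (22.2), Trib3 (16.3) and Ddit3 (7.98). The shSCR libraries of Atf3 ran from 23.3 to 49.7 CPM per kilobase and overlapped those of Nupr1, Sesn2, Ppp1r15a and Chac1, and those of Ppp1r15a and Chac1 overlapped each other. In shPostn the level of Trib3 (5.26 ± 1.29 CPM per kilobase, SD, n = 3) was close to that of Ddit3 (5.59 ± 0.492). Merged exon length is an approximate divisor, since it does not weigh which transcripts were expressed.

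Within shPostn the members followed different libraries. Atf4, Atf5, Nupr1 and Ppp1r15a were highest in replicate 1 and lowest in replicate 3, an order shared by 22.5% of all genes tested. Trib3, Chac1 and Sesn2 were highest in replicate 2, and Ddit4 and Ddit3 were highest in replicate 3. The CV was larger in shPostn than in shSCR for 10 of 10 members, as for 69.4% of all genes tested.

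**Figure D4:**
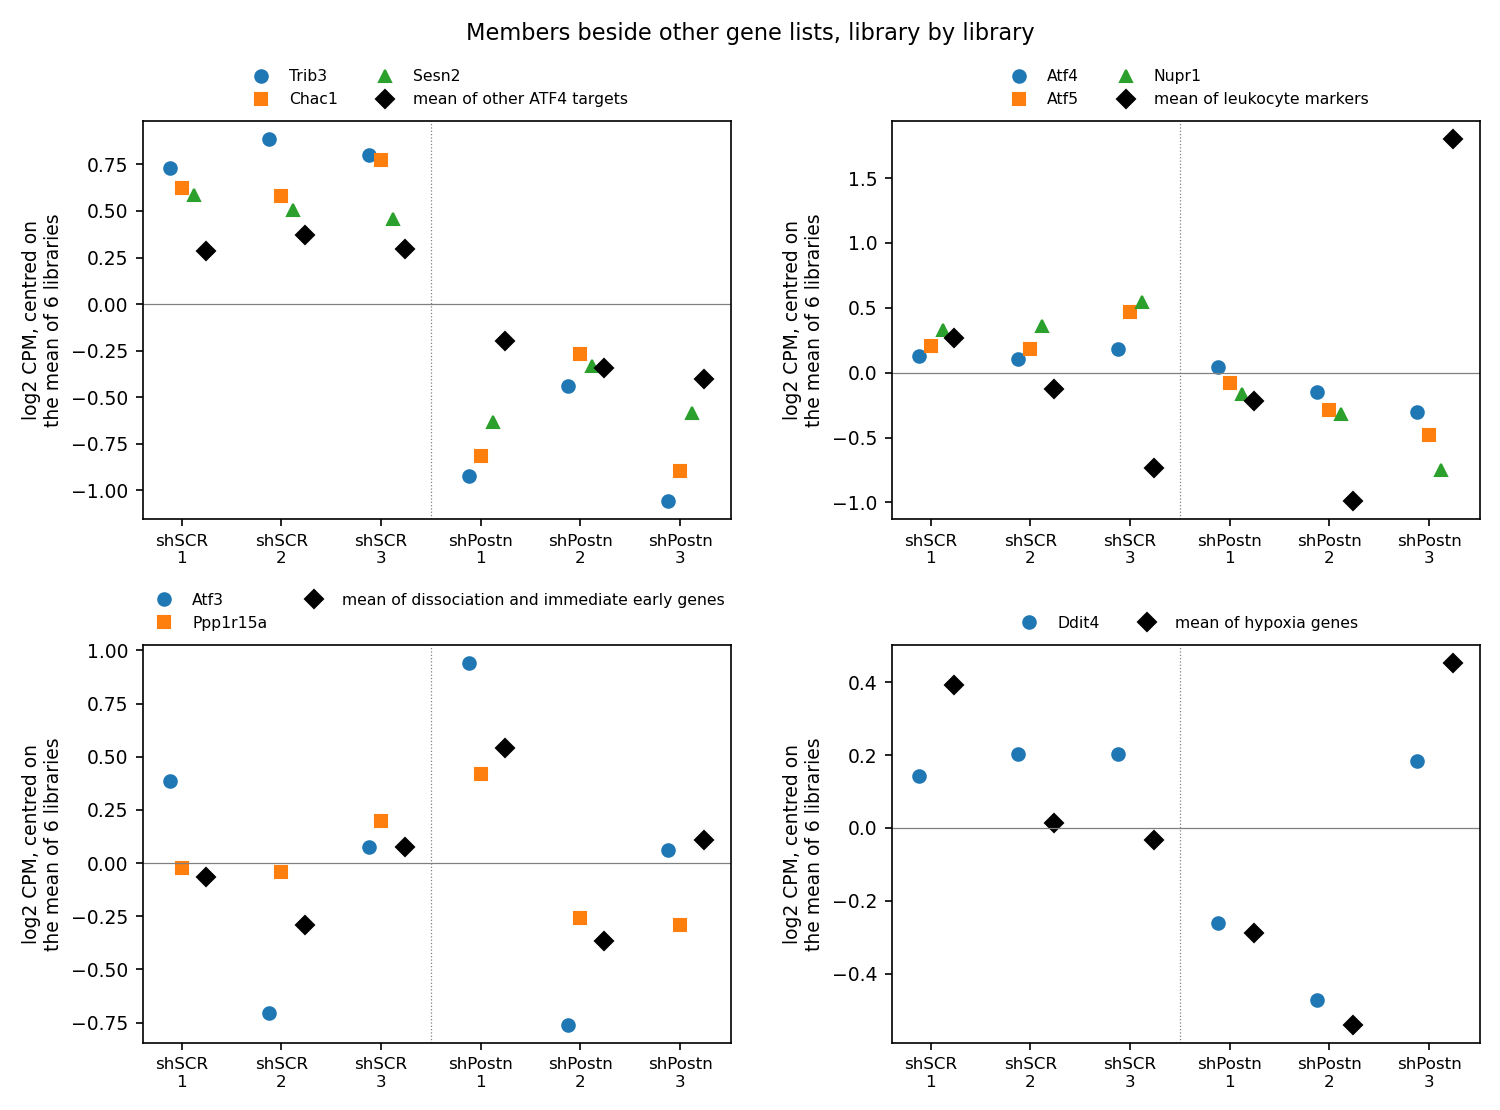
log2 CPM of members (coloured points) and the mean log2 CPM of a marker list (black diamonds) in each library, centred on the mean of the 6 libraries. Trib3, Chac1, Sesn2 and the other ATF4 targets are below 0 in all shPostn libraries. Atf3 peaks with the immediate early genes in shPostn replicate 1, and Ddit4 is lowest with the hypoxia genes in shPostn replicate 2. Among the shSCR libraries the hypoxia genes are highest in replicate 1, where Ddit4 is lowest. In that group Atf3 is highest in replicate 1 and the immediate early genes in replicate 3.

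Atf3, Ppp1r15a and Ddit4 also respond to signals outside the ATF4 pathway, and lists of genes for these signals varied by library. The 16 dissociation and immediate early genes, which cells switch on when tissue is taken apart, summed to 12122 CPM in shPostn replicate 1 and to between 5732 and 7963 CPM in the other 5 libraries. In that library Atf3 and Ppp1r15a were highest, and without it the Atf3 log2 fold change was −0.28 (edgeR adjusted p = 0.722). Among the shSCR libraries the sum was highest in replicate 3 (7963 CPM), as was Ppp1r15a, while Atf3 was highest in replicate 1. Of the 16, 0 passed the edgeR test, 0 had an unadjusted p under 0.05 and DESeq2 and limma-voom called 0; the most abundant were Jun, a partner of ATF3, and Fosb, with log2 fold changes of 0.34 and 0.52.

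The mean log2 CPM of the 14 hypoxia genes, centred over the libraries, was highest in shPostn replicate 3 (0.45). It was lowest in shPostn replicate 2 (−0.54), where Ddit4 was also lowest. Among the shSCR libraries the mean of the hypoxia genes was highest in replicate 1 (0.39), where Ddit4 was lowest. Of these genes 0 passed by edgeR, DESeq2 or limma-voom, and 0 had an unadjusted p under 0.05. Without shPostn replicate 3, 5 were lower by edgeR, as were 1192 of all genes (709 with all libraries). With the leukocyte covariate 5 were also lower, as were 1155 of all genes. That covariate was highest in shPostn replicate 3 (1.80) and lay between −0.99 and 0.27 in the other libraries. The most abundant hypoxia genes were Ldha and Pgk1, both glycolytic enzymes (log2 fold changes −0.15 and 0.03). The part of dissociation, hypoxia or leukocytes in the members' values was not tested. Glucocorticoid receptor targets, 8 tested, had 0 that passed by edgeR. At an unadjusted p under 0.05, 3 were lower and 1 higher, against 27.0% of all genes in either direction. DESeq2 called 3 and limma-voom 2 lower. Without shPostn replicate 3, 4 of them were lower by edgeR (1192 of all genes), and without shPostn replicate 2, 1 was higher (261 of all genes). The most abundant, Errfi1 and Fkbp5, had log2 fold changes of −0.30 and 0.005. The groups of 4 genes did not overlap and were lower in shPostn, as for 17.0% of all genes tested. These were Errfi1, the metallothionein genes Mt1 (−1.33, edgeR adjusted p = 0.196) and Mt2 (−1.72, adjusted p = 0.121), and Klf9 (−0.74, adjusted p = 0.0778). The groups of Sgk1 did not overlap and were higher in shPostn (0.34, edgeR adjusted p = 0.101), as for 16.6% of all genes. In Klf9, Mt1, Mt2 and Errfi1, as in Ddit4, shPostn replicate 3 was the highest of its group.

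Of the 10 p53 targets, which include stress genes that overlap in function with the sestrins, 0 passed by edgeR, DESeq2 or limma-voom. At an unadjusted p under 0.05, 2 were lower and 2 higher, against 27.0% of all genes in either direction. Among the 10 targets Cdkn1a and Phlda3 were the most abundant, with log2 fold changes of −0.34 and −0.01. Without shPostn replicate 3, 1 was higher, as were 1028 of all genes.

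Of 31 tested ATF4 targets other than the members, 24 (77.4%) fell and 0 rose, against 5.53% and 4.61% of all genes, with a median log2 fold change of −0.60; at an unadjusted p under 0.05, 27 were lower and 1 higher (27.0% of all genes in either direction), and DESeq2 called 27 and limma-voom 25 lower with 0 higher. Gdf15 had too few counts. Leaving out shSCR replicate 1, 2 or 3 gave 14, 8 and 11 that fell, and leaving out shPostn replicate 1, 2 or 3 gave 27, 14 and 26. The list was chosen with earlier results on some of its genes known and is not independent of them.

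The largest fall in that list was in Fgf21, a stress hormone gene with few counts. It measured 0.935, 2.15 and 1.37 CPM in shSCR and 0.257, 0.202 and 0.150 CPM in shPostn. It held 90 counts against 12, a ratio of 7.37 (95% exact interval 4.02 to 14.8, counting error only). Its log2 fold change was −2.84 (SE 0.46, edgeR adjusted p = 0.0134), with an adjusted p of up to 0.064 when 1 library was left out. Vldlr, a lipoprotein receptor, averaged 65.3 ± 9.83 CPM in shSCR and 20.5 ± 6.66 CPM in shPostn (SD, n = 3), a log2 fold change of −1.67, with an edgeR adjusted p of up to 0.0672 when 1 library was left out. Cth, the enzyme that makes cysteine from cystathionine, measured 63.2, 82.0 and 65.8 CPM in shSCR and 23.4, 27.3 and 15.7 CPM in shPostn. Its log2 fold change was −1.67 (SE 0.22, edgeR adjusted p = 0.00921), and it passed with any 1 library left out. Slc7a11, the cystine importer, had 38.4, 42.0 and 40.1 CPM in shSCR and 14.5, 12.8 and 11.8 CPM in shPostn. The asparaginyl-tRNA synthetase gene Nars, on chromosome 18, had −0.76, and −0.31 (adjusted p = 0.0620) with chromosome medians taken out. Slc38a2 (0.22) and Wars (0.26) were the only tested genes of the list with a positive value, and neither passed. Of 25 list genes with a promoter window, 8 held TGATGNAA, against 2.8% of tested genes with a window. These 8 were Asns, Pycr1, Slc7a11, Slc1a4, Vldlr, Fgf21, Gars and Aars. The C variant TGACGNAA was found in 0 of the 25, against 3.16% of tested genes with a window. The cAMP response element and the endoplasmic reticulum stress element were also found in 0, against 3.51% and 0.175%.

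**Figure D5:**
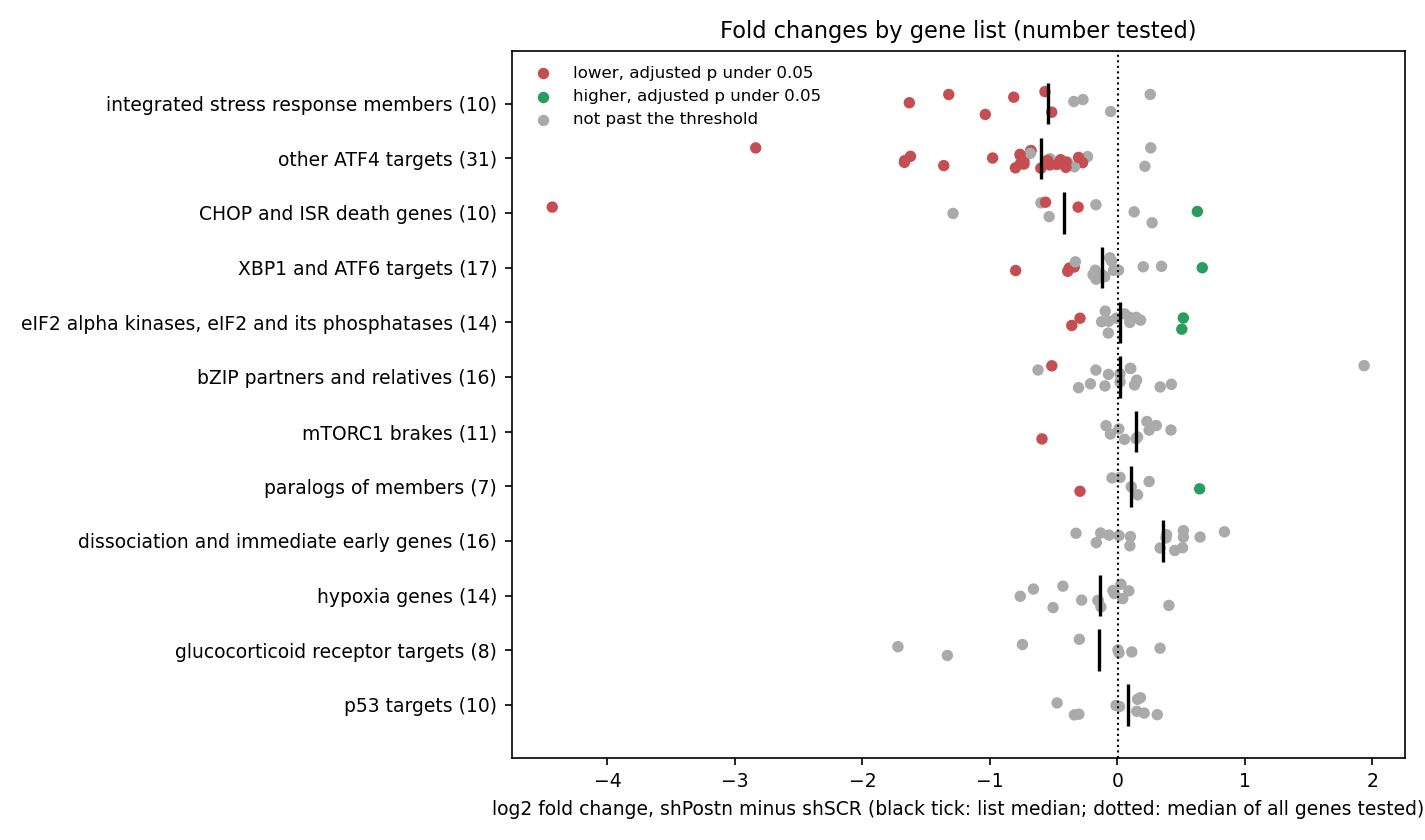
log2 fold changes of the genes of each list, with the number tested; red and green mark an adjusted p under 0.05, black ticks the list medians and the dotted line the median of all genes. Members and other ATF4 targets have medians of −0.54 and −0.60, while the lists of eIF2 factors, leucine zipper relatives, mTORC1 brakes and p53 targets have medians between 0.02 and 0.15.

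Upstream of ATF4, among 14 genes of eIF2, its exchange factor eIF2B, its kinases and phosphatases, 2 (14.3%) fell and 2 rose. The shares of all genes were 5.53% and 4.61%, and the median log2 fold change of the 14 was 0.02. The kinase genes Eif2ak3 (PERK, the endoplasmic reticulum sensor) and Eif2ak4 (GCN2, the amino acid sensor) had −0.09 and 0.10 (edgeR adjusted p = 0.350 and 0.580), and Eif2ak1 and Eif2ak2 had 0.10 and 0.06. Eif2s1, which encodes eIF2 alpha, rose by 0.51 and the eIF2B subunit gene Eif2b2 by 0.52, both on chromosome 12. That chromosome had a median of 0.39, and with it taken out they had 0.12 and 0.13 (adjusted p = 0.573 and 0.538). Ppp1r15b, the constitutive counterpart of Ppp1r15a, fell, with 146 ± 7.63 CPM in shSCR and 119 ± 4.69 CPM in shPostn (SD, n = 3; −0.29, edgeR adjusted p = 0.0341), and the subunit gene Eif2b3 had −0.36. With chromosome medians taken out, 0 of the 14 passed, and 0 passed without any 1 of the shSCR libraries or without shPostn replicate 2; 1 fell and 1 rose without shPostn replicate 1.

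Of 16 leucine zipper partners and relatives Atf6 (6.25%) fell and 0 rose, against 5.53% and 4.61% of all genes. Atf6, the membrane-bound factor of another arm of the unfolded protein response, averaged 88.6 ± 2.55 CPM in shSCR and 62.0 ± 2.59 CPM in shPostn (SD, n = 3), a log2 fold change of −0.51 (SE 0.06, edgeR adjusted p = 0.00530), and passed with any 1 library left out. Without shPostn replicate 3, 3 of the 16 fell, as did 1192 of all genes. The dimer partner genes Cebpg and Cebpb had −0.30 and −0.17 (adjusted p = 0.0553 and 0.639), and Xbp1, the factor of the remaining arm, had −0.10 (adjusted p = 0.432).

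Targets of XBP1 and ATF6 were mixed: of 17, 4 (23.5%) fell and 1 rose, against 5.53% and 4.61% of all genes. Their median log2 fold change was −0.12. Herpud1, which ATF4 also induces and which serves protein disposal from the endoplasmic reticulum, had the largest fall, with 148 ± 9.98 CPM in shSCR and 84.9 ± 12.6 CPM in shPostn (SD, n = 3; −0.80, SE 0.12, edgeR adjusted p = 0.00921). Sec61b (−0.39) and Pdia4 (−0.38) fell, and Dnajb9, on chromosome 12, rose (0.67, and 0.28 with chromosome medians taken out, adjusted p = 0.209). Hspa5, the main chaperone of the compartment, measured 914 and 1163 CPM in the group means (log2 fold change 0.35, adjusted p = 0.0669). Leaving out shSCR replicate 1, 2 or 3 gave 1, 0 and 1 genes of this list that fell and 0 that rose. Of all genes, 249, 189 and 243 fell in these fits. Without shPostn replicates 2 and 3, 0 and 2 of the list rose, against 261 and 1028 of all genes.

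Among 10 genes linked to CHOP or to death under stress 3 fell and 1 rose. Car6, whose intracellular form is induced through CHOP, measured 15.1, 35.3 and 21.1 CPM in shSCR and 1.13, 1.42 and 0.749 CPM in shPostn, the deepest fall of any gene on these lists (log2 fold change −4.43, SE 0.42, edgeR adjusted p = 0.00498). It held 1444 counts against 65, a ratio of 21.8 (95% exact interval 17.0 to 28.4), and passed with any 1 library left out. Dele1, the mitochondrial messenger to the eIF2 kinase HRI, fell by 0.56. It lies on chromosome 18, whose median log2 fold change was −0.45. With chromosome medians taken out Dele1 had −0.12 (edgeR adjusted p = 0.515). Bcl2, a survival gene repressed by CHOP, rose (0.63, adjusted p = 0.0464), and Casp12 fell (−0.31, adjusted p = 0.0399). With chromosome medians taken out Bcl2 had 0.66 (edgeR adjusted p = 0.0584) and Casp12 −0.32 (adjusted p = 0.0515). With 1 library left out their adjusted p reached 0.0736 for Dele1, 0.146 for Bcl2 and 0.137 for Casp12. Without shPostn replicates 1, 2 and 3, 3, 2 and 6 genes of this list fell, against 554, 376 and 1192 of all genes. Pmaip1, Ero1l and Bbc3 were the ones added without shPostn replicate 3. Without shSCR replicates 1, 2 and 3, 2, 1 and 1 of the list fell, against 249, 189 and 243 of all genes. The rise was seen in 1 of the fits with 1 library left out, that without shPostn replicate 3.

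Of 7 paralogs of the members, 1 fell (Ppp1r15b, 14.3% of the list) and 1 rose (Trib2), against 5.53% and 4.61% of all genes. Sesn1 and Sesn3, the other sestrin genes, had 0.16 and 0.25 (edgeR adjusted p = 0.394 and 0.405), and Trib1 and Chac2 had −0.04 and 0.11. Trib2 rose by 0.65 (adjusted p = 0.0181), lies on chromosome 12, and had 0.26 with chromosome medians taken out (adjusted p = 0.248). The paralog falls and rises were both 0 without shPostn replicate 2 or without shSCR replicate 1 or 2, and Ppp1r15b also lost its call without shPostn replicate 1 or shSCR replicate 3. Of 11 other mTORC1 brakes, among them the paralogs of Sesn2, Deptor (9.09%) fell and 0 rose, against the same shares of all genes. Deptor, a direct inhibitor of the complex, had 27.2 ± 4.01 CPM in shSCR and 18.1 ± 2.24 CPM in shPostn (SD, n = 3; −0.59, edgeR adjusted p = 0.0394). It passed only without shPostn replicate 3 or shSCR replicate 3 among the fits with 1 library left out. Without shPostn replicate 3, 1 other brake rose, as did 1028 of all genes. The differences between a member and its paralogs were not tested.

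Genes with a profile over the 6 libraries most like that of the 3 members with the lowest p were sought. The measure was the root mean square difference of centred log2 CPM. The search covered 9962 genes with a mean of at least 5 CPM, with predicted and clone-named genes left out. Nearest to Trib3 were Cth (0.15), Chac1 (0.17) and Plcxd2 (0.17). Nearest to Chac1 were Trib3 (0.17), Enpp4 (0.19) and Sesn2 (0.20). Nearest to Sesn2 were Naalad2 (0.06), Dagla (0.10) and Zfp35 (0.11), and Zfp35 lies on chromosome 18, whose median log2 fold change was −0.45. Naalad2 measured 186, 177 and 165 CPM in shSCR and 88.8, 99.2 and 85.2 CPM in shPostn.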

How the data were processed

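Polyadenylated RNA of sorted sarcoma cells was sequenced from strand-specific DNBSEQ libraries, per the labels' protocols. The authors deposited estimated counts, made with Salmon on mm10 per the submitters' processing notes, 1 row for each Ensembl gene; no version or transcript set is stated in these sources. All values were whole (0 were not), so rounding changed none. Symbols, positions and exon lengths came from GENCODE M21 (GRCm38), which matched 35493 of 35727 rows; promoter windows are RefSeq's.

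Counts were tested with edgeR 4.0.16 (robust quasi-likelihood F-test, TMM factors, filterByExpr with a minimum count of 10, no covariate; limma 3.58.1, R 4.3.3). p-values were Benjamini-Hochberg adjusted over 12819 genes with a threshold of 0.05. The SE is the size of the log2 fold change over the square root of F. The test was checked on simulated counts. No list was tested as a set. Intervals cover counting error only, since reads carry no molecular identifiers. Alternatives were RLE, upper quartile or no factors, 2 other filters, DESeq2 1.42.0, limma-voom, a replicate block, the leukocyte mean as a covariate, chromosome medians (genes above 4 CPM) taken out of the offsets, and each library left out. All members were named; of each list, up to 4 called genes with the largest changes or else the 2 most abundant, and direct counterparts of members. Nup62, Il4i1, Mars, Nars, Wars, Slc38a2, Hspa5, Thy1, Krt5 and Des were added with their values in view. So were Mt1, Mt2, Klf9, Sgk1, Pmaip1, Ero1l, Bbc3 and the genes with promoter matches. The members and lists were chosen with earlier results of these data known. Figures were drawn with Python 3.11.15 and matplotlib 3.10.9.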

Additional observations from a re-analysis of the deposited data

How the results depend on the processing

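Of 160 values of the 10 members under 16 alternatives, 134 kept their direction and their side of the threshold, 17 lost a call, 4 gained one and 5 changed sign, all in Atf3 and Ppp1r15a, which were not called. Atf3 had a log2 fold change of −0.28 without shPostn replicate 1, within a range of −0.28 to 0.58 with 1 library left out. Ppp1r15a had 0.0029 with chromosome medians taken out, 0.03 when shSCR replicate 3 was left out, 0.06 and 0.075 when shPostn replicates 2 and 3 were, and ran from −0.32 to 0.075 with 1 library left out. With 1 library left out, the genes called lower numbered 189 to 1192 (709 with all) and those called higher 118 to 1028 (591 with all); 3 to 7 members and 8 to 27 other ATF4 targets were lower, and 0 to 1 of these targets higher. DESeq2 called 943 genes higher. The leukocyte covariate gave 1155 genes lower, 978 higher and 1 other ATF4 target higher, and chromosome medians taken out gave 360 lower and 295 higher.

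The replicate block gave 414 genes lower, 321 higher and 3 members lower (Trib3, Chac1 and Sesn2). The labels share only numbers between the groups: deviations of same-numbered libraries correlated at −0.07, −0.10 and −0.46, and no library correlated best with its own number, so the samples are not treated as pairs. The counts were lowest for Ddit3 among the members, 827 and 568 per group.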
